A study of Homo sapiens with 4 samples.

Results

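The tripartite motif (TRIM) family of ubiquitin ligases was followed in human mammary epithelial cells with and without a short hairpin RNA (shRNA) against PAK1, a serine/threonine kinase of the p21-activated family. Members were all spots other than controls whose gene name on the array was TRIM with a number, or PML, which is also known as TRIM19. The rule gave 68 genes, 100 probes and 136 spots, of 27193 gene names, 34127 probes and 43118 spots on each array. A list of 12 members known to be induced by interferon was set against the 56 other members.

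Both groups were MCF10A.B2 cells, that is MCF10A mammary epithelial cells with a chemically activatable form of Her2, and there were 2 control samples and 2 samples with shRNA targeting Pak1. All 4 samples were serum starved for 3 h and then given the crosslinker AP1510 for 15 min to activate the receptor, so the controls carried the receptor and the stimulus too. The labels call the comparison group control or Pak1 wild type and do not say whether it held the tetracycline-inducible shRNA uninduced. Arrays with a non-targeting shRNA were not analysed here, so an effect of any shRNA and an effect of PAK1 cannot be told apart. The sample labels name a cell line, whereas the design text of the series speaks of cells from tumors, and neither says how the duplicates of the human line were obtained, so p-values measure the spread between these samples, which may be technical.

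TRIM proteins carry a RING domain that passes ubiquitin to a substrate, then B-boxes and a coiled coil through which they dimerize, and a C-terminal domain that chooses the target. In many members that domain is a PRY-SPRY fold, which in TRIM5 binds retroviral capsids and in TRIM21 binds antibodies. Type I and type III interferons act through a transcription factor complex that includes IRF9 and binds the interferon-stimulated response element, and some TRIM genes are among their targets. Several TRIM ligases in turn act on the sensors and adaptors that lead to interferon.

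Each sample was measured on 1 Agilent array in 1 colour, and values are log2 intensities after background correction and quantile normalization, from the probe that stood for each gene. They can be compared between arrays for a given gene but not between genes, and in bulk samples fewer cells of a type and less RNA per cell cannot be told apart. From 78.9% to 83.2% of probes were well above background on an array, and the arrays of a group correlated at 0.998 across probes against 0.928 to 0.939 between groups. PAK1 itself had values of 11.19 and 11.27 in the control samples against 10.44 and 10.51 in the PAK1 shRNA samples, which is 59.2% of the control level (log2 fold change -0.76, standard error (SE) 0.08, adjusted p = 0.000184 by limma with the Benjamini-Hochberg method). All 8 basal mammary epithelial markers were measured well above background in every sample. Of 4 leukocyte markers, all well above background in every sample, PTPRC and CD3E had group means of at most 7.84 and differences that did not pass the test, whereas CD68 rose by 3.75 and CD14 by 1.23 on the log2 scale. The summed log2 level of the 3 of them with a value on every array was 9.71 and 9.66 in the control samples against 12.5 and 13.0 in the PAK1 shRNA samples, and their part in the rises below was not tested. All 5 proliferation markers fell, with a median log2 fold change of -4.31.

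Of the 68 TRIM genes, 58 had a probe that both arrays of one group or the other measured well above background, and were tested. At an adjusted p under 0.05, 23 members rose and 17 fell with the PAK1 shRNA, or 39.7% and 29.3% of those tested. Among all 21973 genes tested the shares were 30.6% higher and 31.9% lower, 62.5% in either direction, so a called gene was no rare event on these arrays. The tested TRIM genes had a median log2 fold change of -0.01, and all genes one of 0.02. The family as a whole thus had no common direction, and its members spread from -2.35 for TRIM7 to 4.33 for TRIM22. The filter left out TRIM17, TRIM40, TRIM43, TRIM48, TRIM49L1, TRIM55, TRIM60, TRIM63, TRIM64 and TRIM72, whose probes reached at most 6.40 and were well above background on no more than 1 array.

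**Figure D1:**
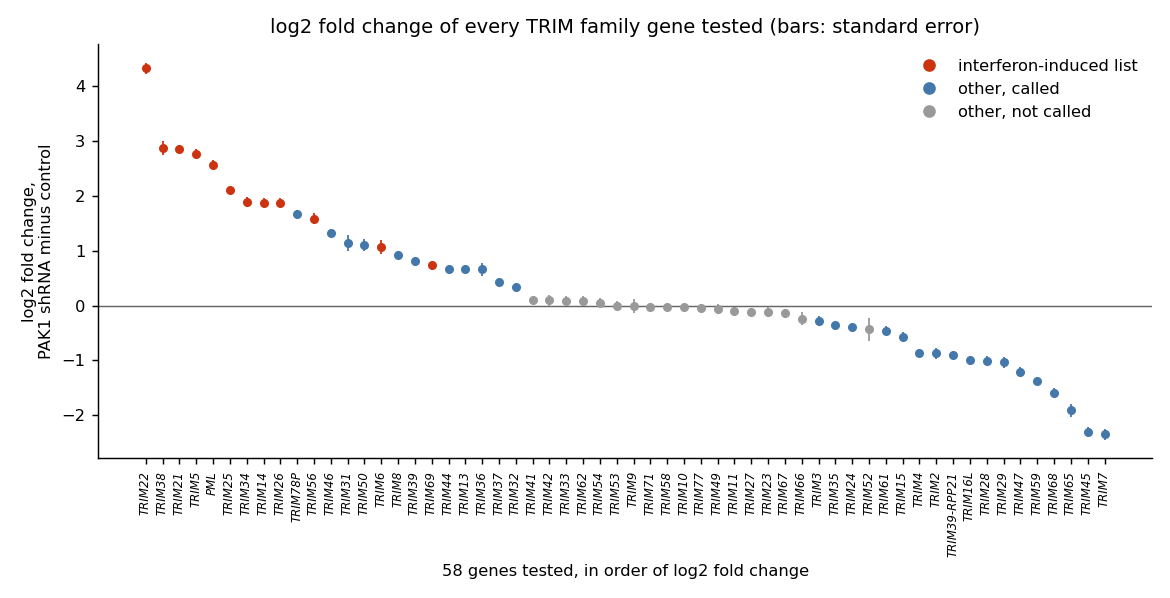
The log2 fold change (PAK1 shRNA minus control, vertical axis) of each of the 58 tested TRIM family genes, ordered from the largest rise to the largest fall, with bars for the standard error of the limma fit from 2 arrays per group. The 12 genes of the interferon-induced list (red) all lie above 0, from 0.74 to 4.33, while the other members lie on both sides, from -2.35 to 1.67.

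All 12 members of the interferon-induced list were tested and all 12 were higher in PAK1 shRNA cells, with a median log2 fold change of 2.00. Of these, 11 rose at least 2-fold, against 8.80% of all genes. On every one of the 12, both PAK1 shRNA arrays lay above the control arrays measured, a pattern seen in 42.0% of all genes. Of the 46 other members tested, 11 were higher (23.9%) and 17 were lower (37.0%), against 30.6% and 31.9% of all genes. Their median was -0.09, and it was 0.021 with the processed signal and 0.10 under median centring. The list was drawn from general knowledge with earlier results of these arrays known, so its counts describe the arrays and were not tested as a set.

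TRIM22, an antiviral member that acts in the nucleus, had the largest rise of the family. Its log2 intensities were 11.53 and 11.29 in the control samples against 15.71 and 15.77 in the PAK1 shRNA samples. This was a 20.1-fold rise (log2 fold change 4.33, SE 0.10, adjusted p = 6.25e-07 by limma). The gap between the groups was many times the distance between the arrays of either group.

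TRIM38, which restrains Toll-like receptor signalling, went from 9.59 and 9.21 to 12.22 and 12.32, a log2 fold change of 2.87 (SE 0.13, adjusted p = 6.51e-06). Its control arrays lay further apart than those of any other gene on the list, yet well below the PAK1 shRNA arrays. TRIM21, the cytosolic antibody receptor, had 8.51 on each control array and 11.36 and 11.38 on the PAK1 shRNA arrays, and rose 7.24-fold (log2 fold change 2.86, SE 0.07, adjusted p = 7.77e-07). TRIM5, the retroviral capsid restriction factor, had 8.20 on control array 1 and 10.95 and 10.99 on the PAK1 shRNA arrays. Its spot on control array 2 was left out because the scanner software flagged the local background, so the log2 fold change of 2.77 (SE 0.09, adjusted p = 7.71e-06) rests on 1 control array. It was 2.76 with that spot kept.

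PML organizes the nuclear bodies that bear its name. Its intensities were 14.09 and 13.94 in the control samples against 16.51 and 16.66 in the PAK1 shRNA samples, a 5.93-fold rise (log2 fold change 2.57, SE 0.09, adjusted p = 2.63e-06). TRIM25, which ubiquitinates the RNA sensor RIG-I, went from 13.83 and 13.78 to 15.96 and 15.86, with a log2 fold change of 2.11 (SE 0.08, adjusted p = 2.79e-06). For both genes the groups lay far apart on bright probes.

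TRIM34, a relative of TRIM5, had 8.53 and 8.39 in control cells and 10.30 and 10.38 in PAK1 shRNA cells (log2 fold change 1.89, SE 0.08, adjusted p = 5.77e-06). TRIM14, an adaptor at the mitochondrial protein MAVS that lacks a RING domain, had 11.65 and 11.51 against 13.46 and 13.45, which is a 3.66-fold rise (SE of the log2 fold change 0.08, adjusted p = 5.06e-06). TRIM26, a PRY-SPRY ligase reported to act on IRF3, had 10.41 and 10.53 against 12.29 and 12.39, with a log2 fold change of 1.87 (SE 0.08, adjusted p = 5.6e-06). These genes had close to equal rises, and in each the control arrays sat together far below the PAK1 shRNA arrays.

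The smallest rises on the list were those of TRIM56, TRIM6 and TRIM69. TRIM56, an antiviral ligase linked to STING signalling, had 12.29 on control array 1 and 13.85 and 13.90 on the PAK1 shRNA arrays. It rose 3.00-fold (log2 fold change 1.59, SE 0.10, adjusted p = 5.52e-05), again with control array 2 left out for a flagged background, and 1.75 with that spot kept. Without control array 1 neither TRIM5 nor TRIM56 could be tested. TRIM6, which makes ubiquitin chains that activate the kinase IKBKE, had 8.96 and 8.99 against 10.22 and 9.86 (log2 fold change 1.07, SE 0.12, adjusted p = 0.000348). Its PAK1 shRNA arrays differed more from each other than those of any other gene on the list, and under the methods' t-test it no longer passed (adjusted p = 0.0604), while the 9 other genes of the list that this test could take did. That test is the unpaired one the study names for its statistics in general, and for arrays the study names the moderated test of limma used here. TRIM69, a centrosomal ligase with antiviral activity, had 9.56 and 9.70 against 10.34 and 10.40 and was the one gene of the list with a rise under 2-fold, at 1.67-fold (log2 fold change 0.74, SE 0.08, adjusted p = 0.000283).

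**Figure D2:**
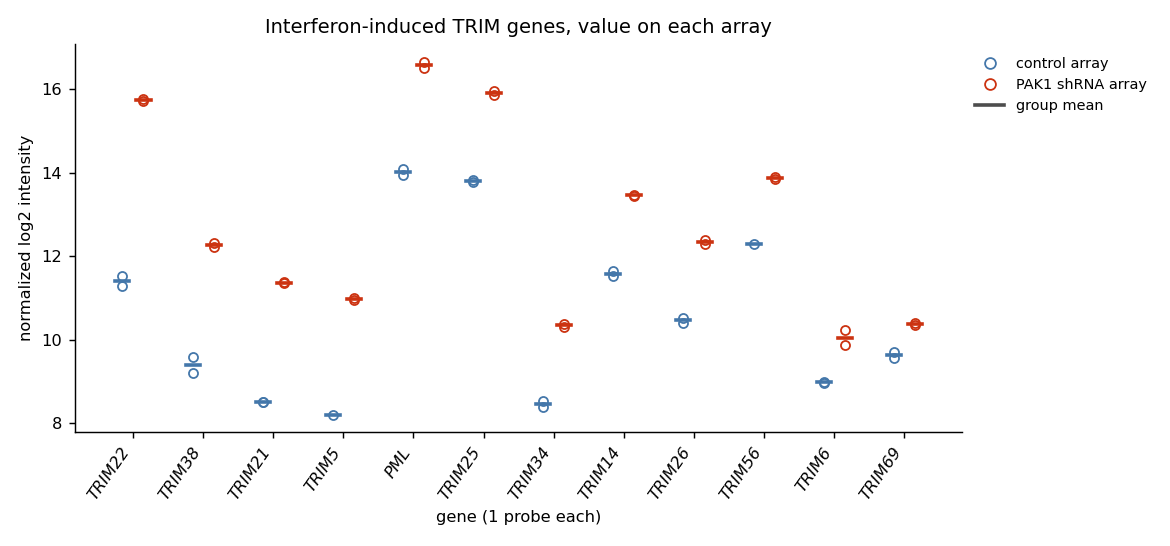
Normalized log2 intensity (vertical axis) of the 12 TRIM family genes of the interferon-induced list on each array, with circles for single arrays and short lines for group means (2 arrays per group, 1 control array for TRIM5 and TRIM56). In every gene the PAK1 shRNA arrays (red) lie above the control arrays (blue), from the gap of 4.33 for TRIM22 down to 0.74 for TRIM69; levels of different genes are from different probes and are not comparable.

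The interferon genes themselves moved with these members. IFNB1, the type I interferon of epithelial cells, had 6.35 and 6.34 on the control arrays, where it was well above background on 1 array, and 11.07 and 11.71 on the PAK1 shRNA arrays. IL29, a type III interferon, had 6.64 and 6.67 against 14.09 and 14.83. Their part in the rise of the TRIM genes was not tested.

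RefSeq promoter windows (GRCh38.p14, from 250 bases before to 50 bases after each gene's start) were given for 50 of the 68 members, 10 of them on the interferon-induced list, while TRIM22 and PML had none. The core of the interferon-stimulated response element was searched on both strands as 2 copies of GAAA with any 2 bases between them, which reads as 2 copies of TTTC on the other strand. It was present in a window of 6 of the 10 interferon-induced members (60.0%) and of 2 of the 40 others (5.0%). Among all 27305 genes with a window the share was 4.38%. The stretches that hold the core are shown because they are a sequence feature that 6 of the interferon-induced members shared, 5′ to 3′ on the strand of the gene, with the matching letters in capitals.
TRIM21 (chr11:4393663-4393692, minus strand): ctgagcgGAAACTGAAAGTGAAAtagggag
TRIM5 (chr11:5685075-5685174, minus strand): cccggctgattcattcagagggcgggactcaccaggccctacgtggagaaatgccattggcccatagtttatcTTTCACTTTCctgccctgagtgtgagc
TRIM34 (chr11:5624866-5624965, plus strand): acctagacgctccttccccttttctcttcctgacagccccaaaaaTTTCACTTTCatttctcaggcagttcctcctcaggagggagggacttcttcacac
TRIM14 (chr9:98119223-98119322, minus strand): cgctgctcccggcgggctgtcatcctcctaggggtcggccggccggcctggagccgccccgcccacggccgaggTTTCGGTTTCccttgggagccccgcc
TRIM26 (chr6:30213543-30213642, minus strand): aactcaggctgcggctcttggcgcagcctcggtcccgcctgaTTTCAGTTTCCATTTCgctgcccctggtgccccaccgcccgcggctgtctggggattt
TRIM69 (chr15:44736421-44736520, plus strand): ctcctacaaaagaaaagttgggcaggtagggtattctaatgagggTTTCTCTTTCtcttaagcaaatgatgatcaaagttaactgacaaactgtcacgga

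TRIM21 and TRIM26 each held 2 overlapping copies of the core. Counted from the gene's start, the first match began at position 17 in TRIM21, -27 in TRIM5, -26 in TRIM14, -62 in TRIM69, -90 in TRIM34 and -194 in TRIM26. TRIM34 had 2 windows, of which 1 held the core. The windows of TRIM38, TRIM25, TRIM56 and TRIM6 held no match, and these genes rose by 2.87, 2.11, 1.59 and 1.07 on the log2 scale. The core was also found in TRIM44, which rose by 0.67, and in 1 of the 6 windows of TRIM2, which fell by 0.87, both shown for contrast.
TRIM44 (chr11:35662675-35662774, plus strand): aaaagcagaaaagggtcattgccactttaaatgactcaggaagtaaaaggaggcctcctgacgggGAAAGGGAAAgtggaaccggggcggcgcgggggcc
TRIM2 (chr4:153151913-153152012, plus strand): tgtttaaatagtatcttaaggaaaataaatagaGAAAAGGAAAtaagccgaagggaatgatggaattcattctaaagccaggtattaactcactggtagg
The gamma-activated sequence TTCNNNGAA, which reads the same on both strands and serves the response to interferon gamma, was in a window of 0 of the 10 interferon-induced members and 8 of the 40 others (20.0%), against 9.38% of all genes. A match describes the letters and was not tested as a binding site.

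By the probe that stands for each gene, 11 of the 46 tested members outside the interferon-induced list were higher. This was 23.9%, against 30.6% of all genes, with log2 fold changes from 0.34 to 1.67. Of the 46, 4 were at least 2-fold higher, against 8.80% of all genes, so neither count exceeds the share among all genes. TRIM78P, a pseudogene beside TRIM5, had the largest of these rises, from 7.72 and 7.79 to 9.46 and 9.39 (log2 fold change 1.67, SE 0.07, adjusted p = 6.2e-06). TRIM46, which organizes axonal microtubules, went from 7.76 and 7.70 to 9.05 on each PAK1 shRNA array, a 2.50-fold rise. TRIM50, a gastric member, went from 7.33 and 7.02 to 8.26 and 8.29 (2.14-fold), and by its accession the probe also represents TRIM73 and TRIM74. The other TRIM50 probe, matched to TRIM50 alone, had values of at most 6.06 and was well above background on no array. The rise therefore cannot be assigned to TRIM50 itself. TRIM78P, TRIM46 and TRIM50 were dim, and the log2 fold change of TRIM50 was 0.65 with the normexp background fitted on all spots and 1.75 with the processed signal.

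TRIM8, a positive regulator of NF-kB and of STAT3 signalling, had 11.05 and 11.02 in control cells and 11.96 and 11.94 in PAK1 shRNA cells, a rise of 1.89-fold (log2 fold change 0.92, SE 0.07, adjusted p = 5.61e-05). TRIM39, which acts on cell cycle and apoptosis regulators, had 10.31 and 10.27 against 11.05 and 11.14 (log2 fold change 0.80). TRIM44, which lacks a RING domain and is linked to deubiquitination, had 12.46 and 12.35 against 13.03 and 13.11 (log2 fold change 0.67). In these genes the arrays of a group lay close together and the groups did not overlap. TRIM36, TRIM37 and TRIM32 rose by 0.66, 0.43 and 0.34, and TRIM36 was lost under the methods' t-test (adjusted p = 0.0983). TRIM13 is counted by its brighter probe, at 0.66, while its other probe was called lower.

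TRIM31, a gut-enriched ligase, had 6.16 and 6.28 on the control arrays, where it was not well above background, and 7.14 and 7.58 on the PAK1 shRNA arrays. On these values its rise was 2.20-fold (log2 fold change 1.14, 95% interval from 0.79 to 1.49, adjusted p = 0.000574 by limma). That size depended on the background correction, with a log2 fold change of 0.60 when normexp was fitted on all spots. Under the methods' t-test TRIM31 no longer passed (adjusted p = 0.0755). It entered the test through the PAK1 shRNA arrays alone, a filter that itself favours a difference. Without it and TRIM13, 9 members outside the interferon-induced list were higher, 3 of them at least 2-fold, TRIM50 included.

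Falls were seen in 17 of the 58 tested members (29.3%, against 31.9% of all genes), none of them on the interferon-induced list. Their log2 fold changes ran from -2.35 to -0.28. Of the 58 tested members, 8 fell at least 2-fold, against 9.09% of all genes tested. TRIM7, which binds the glycogen primer glycogenin, had 14.08 and 14.12 in the control samples against 11.86 and 11.65 in the PAK1 shRNA samples, a level 5.09-fold lower (log2 fold change -2.35, SE 0.09, adjusted p = 3.97e-06). TRIM45, a filamin-domain member that dampens mitogen-activated kinase and NF-kB signalling, had 10.27 and 10.16 against 7.98 and 7.83 (log2 fold change -2.31, SE 0.09, adjusted p = 3.22e-06). In both genes the PAK1 shRNA arrays lay far below the control arrays, and the arrays of a group lay close together. The fall of TRIM45 was smaller with the normexp background fitted on all spots, at -1.67.

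TRIM65, a ligase for the RNA sensor MDA5, had 12.64 and 12.39 in control cells and 10.72 and 10.49 in PAK1 shRNA cells, and was 3.76-fold lower (log2 fold change -1.91, SE 0.12, adjusted p = 2.18e-05). TRIM68, a coregulator of the androgen receptor, had 10.74 and 10.71 against 9.24 and 9.04 (log2 fold change -1.58, SE 0.09, adjusted p = 1.59e-05). TRIM59, a membrane-anchored member linked to proliferation, had 10.81 and 10.85 in control cells against a mean of 9.46 ± 0.06 (SD, n = 2) in PAK1 shRNA cells (log2 fold change -1.37, SE 0.08, adjusted p = 1.33e-05). TRIM47 had 14.37 and 14.45 against 13.29 and 13.11, a level 2.32-fold lower. In each of them both PAK1 shRNA arrays lay below both control arrays, as they did in 40.1% of all genes.

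Among the further falls were TRIM29, an epithelial member of the basal layer, at -1.04, and TRIM28, the KAP1 corepressor of zinc finger repressors, at -1.01. Another was TRIM16L, 2.00-fold lower. Its probe carries that name on the array but was matched to the RefSeq gene TRIM16, so which of them it measures is uncertain. TRIM39-RPP21, a read-through transcript whose probe also represents RPP21, fell by 0.90, and TRIM2 and TRIM4 each fell by 0.87. TRIM15, TRIM61, TRIM24, TRIM35 and TRIM3 had the smallest falls, from -0.57 to -0.28. The call for TRIM3 (adjusted p = 0.0456) held in 7 of 17 alternatives. The log2 fold change of TRIM3 ran from -0.41 without PAK1 shRNA array 1 to -0.16 without PAK1 shRNA array 2. The call was lost with any array left out except PAK1 shRNA array 1. It was also lost under 6 other settings of the background, the normalization and the filter, and under the methods' t-test (adjusted p = 0.22). That for TRIM35 (-0.36) was lost without PAK1 shRNA array 2 (-0.29, adjusted p = 0.0555) and under the methods' t-test (adjusted p = 0.0706), as was that for TRIM15 under the latter (adjusted p = 0.0684). The proliferation markers fell in the same samples, with a summed log2 level of 16.3 and 16.4 on the control arrays and 12.8 on each PAK1 shRNA array, and their part in the falls of TRIM genes was not tested.

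**Figure D3:**
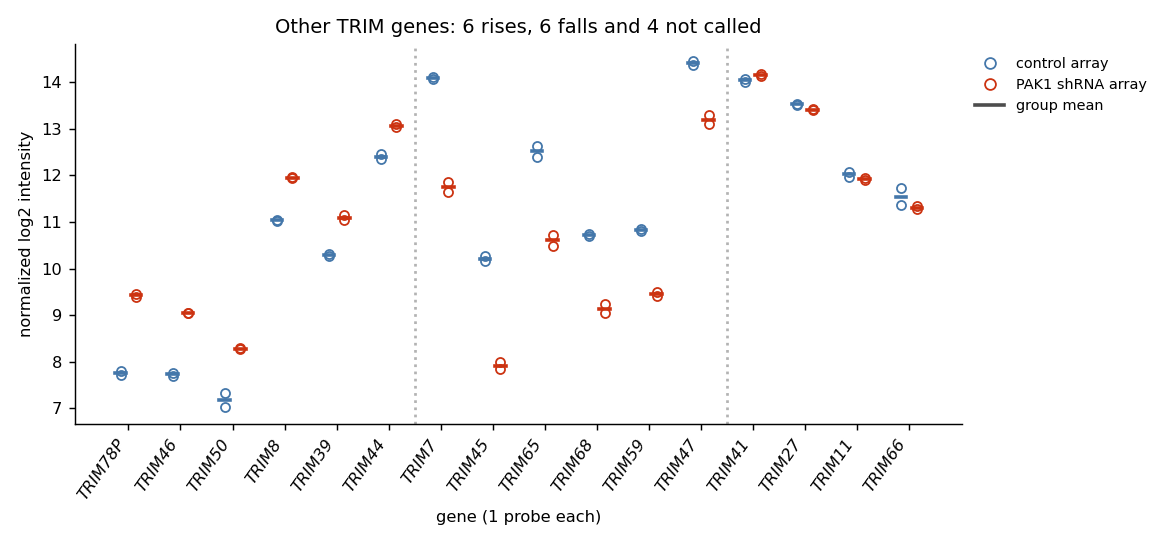
Normalized log2 intensity (vertical axis) on each array of the members outside the interferon-induced list with the 6 largest rises and the 6 largest falls among those measured above background in every sample, and of the 4 brightest that did not pass the test, parted by dotted lines; circles are single arrays and short lines are means of 2 arrays. The groups are apart in the rises and falls, by up to 2.35 for TRIM7, and TRIM41, TRIM27, TRIM11 and TRIM66 differ by at most 0.24.

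The remaining 18 members tested did not pass. Their log2 fold changes ran from -0.43 to 0.11 and their adjusted p by limma from 0.113 to 0.99. The groups overlapped in 9 of them and were apart in the other 9. Among all genes, called ones included, the groups were apart in 82.1%. These members were picked for not passing, so that share is not a like comparison. The 95% intervals of all 18 lay between -0.93 and 0.35, so in the limma fit each excluded a 2-fold change in either direction. The brightest was TRIM41, a ligase for protein kinase C, with 14.02 and 14.07 in control cells and 14.18 and 14.14 in PAK1 shRNA cells (log2 fold change 0.11, interval from -0.06 to 0.29, adjusted p = 0.228). TRIM27, a regulator of endosomal sorting, had 13.52 and 13.53 against 13.43 and 13.40 (-0.11, interval from -0.28 to 0.06). TRIM11, which acts on protein quality control, had 12.08 and 11.97 against 11.94 and 11.89 (-0.11, interval from -0.29 to 0.08).

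TRIM66, a heterochromatin-associated member, had 11.72 and 11.37 in control cells and 11.34 and 11.27 in PAK1 shRNA cells, so that control array 1 stood above the rest (log2 fold change -0.24, interval from -0.53 to 0.05). TRIM52 had the widest interval, with a mean of 11.35 ± 0.49 (SD, n = 2) in control cells, where array 1 stood at 11.70, and 10.91 on each PAK1 shRNA array (log2 fold change -0.43, adjusted p = 0.113). Both falls depended on control array 1. Without control array 2 the log2 fold change was -0.79 for TRIM52 and -0.42 for TRIM66. Without control array 1 it was -0.08 for TRIM52 and -0.07 for TRIM66. TRIM42, TRIM33, TRIM62, TRIM54, TRIM53, TRIM9, TRIM71, TRIM58, TRIM10, TRIM77, TRIM49, TRIM23 and TRIM67 made up the rest, with log2 fold changes between -0.14 and 0.09. All of these but TRIM33 had group means of 8.19 or less.

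In most structural classes of the family members moved in different directions or did not pass. Of the PHD-bromodomain members, which bind chromatin, TRIM28 and TRIM24 fell, TRIM33 (0.09) and TRIM66 (-0.24) did not pass, and none rose. Of the NHL-repeat members, some of which bind RNA, TRIM2 and TRIM3 fell, TRIM32 rose and TRIM71 (-0.02) did not pass. The COS-box and muscle class, whose members bind microtubules or the sarcomere, had 5 of 7 genes tested, with TRIM46 and TRIM36 higher and none lower. Of the membrane-anchored members TRIM59 fell, while the probes of TRIM13 were called in opposite directions. Of the single-gene classes TRIM37 rose, TRIM45 fell and TRIM23 (-0.12) did not pass. The 5 tested members without a RING domain were TRIM14 and TRIM44, which rose, TRIM29 and TRIM16L, which fell, and TRIM66.

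Several members lie beside each other in the genome, and 26 genes formed 7 groups in which the probes of neighbours were within 200 kb (hg19). On chromosome 11 the probes of TRIM6 (chr11:5633867-5633926), TRIM34 (chr11:5655079-5655869), TRIM5 (chr11:5687231-5687290), TRIM78P (chr11:5687534-5687593) and TRIM22 (chr11:5731591-5731650) followed each other, and all 5 genes were higher, by 1.07, 1.89, 2.77, 1.67 and 4.33. The probes of TRIM5 and TRIM78P lie close together on opposite strands. On chromosome 6, near the MHC class I genes, neighbours differed. TRIM31, TRIM26 and TRIM39 were higher, TRIM15 and TRIM39-RPP21 were lower, TRIM10 did not pass and TRIM40 was not tested.

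On chromosome 17 the adjacent TRIM47 (chr17:73870247-73870306) and TRIM65 (chr17:73885074-73885133) both fell, with log2 fold changes of -1.21 and -1.91. On chromosome 5 TRIM7 (chr5:180630208-180630267) fell by 2.35, whereas its neighbours TRIM41 (0.11) and TRIM52 (-0.43) did not pass. In the second group on chromosome 11, none of TRIM77, TRIM49 and TRIM53 passed and TRIM49L1 and TRIM64 were not tested. By their accessions the probes of TRIM49, TRIM49L1 and TRIM64 also represent close paralogs, so their signals are of uncertain origin.

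Probes of the same gene gave a check within each array. A second or further probe could be tested for 19 members. In 9 of them at least 2 probes passed, and in 8 of these 9 the passing probes pointed the same way. In 7 members 1 probe passed and in 3 none did, so they gave no such comparison. The 3 tested probes of PML rose by 1.68 to 2.99 on the log2 scale and the 4 of TRIM14 by 1.44 to 1.87, and both probes of TRIM7 were lower, at -2.35 and -1.63. Over the interferon-induced list 18 of 19 tested probes were higher, the exception being the second probe of TRIM6, at 0.09, so the rise of TRIM6 rests on 1 of its 2 probes. The second probe of TRIM34 (1.60) also represents the read-through gene TRIM6-TRIM34 by its accession.

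TRIM13 was the member whose probes were called in opposite directions. Its brighter probe (chr13:50587010-50587069) rose by 0.66 and the other (chr13:50592487-50592546) had a log2 fold change of -0.95, so no direction can be given for the gene. The other probe had no value on PAK1 shRNA array 1, so its fall rests on PAK1 shRNA array 2 alone. The second probe of TRIM46 rose by 0.35, less than the 1.32 of the probe used. The second tested probe of TRIM36 had -0.12 and did not pass, on the other side of 0 from the probe used. It lies on the plus strand, whereas the probe used lies on the minus strand, and it matched no RefSeq gene. Whether it measures TRIM36 is therefore uncertain. Of the members described above as not passing, TRIM41 and TRIM9 had a second probe that was lower, at -0.27 and -0.41, TRIM66 had one at -0.29, and TRIM62 had one that was higher, at 0.38. That second probe of TRIM9 also had no value on PAK1 shRNA array 1.

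The partners of the TRIM ligases were read from the same fit. Of 17 genes of the sensing and interferon signalling pathway on which TRIM ligases act, 16 were tested, 14 were higher (87.5%) and 1 was lower (6.25%), against 30.6% and 31.9% of all genes, with a median log2 fold change of 1.52 against 0.02. DDX58, which encodes RIG-I, the substrate of TRIM25, rose by 5.36, IFIH1, which encodes MDA5, the substrate of TRIM65, rose by 5.50, and IKBKE, the kinase that TRIM6 acts on, rose by 1.92. MAVS, the mitochondrial adaptor, was the exception, with a log2 fold change of -0.31, and TAB2 (0.12) did not pass. The value of MAVS rests on control array 1 alone in its group, since control array 2 gave none. TRIM65 was thus lower and the gene of its substrate higher in the same samples.

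Of 12 ubiquitin-conjugating enzymes and cofactors that serve RING ligases, 2 were higher and 5 were lower, or 58.3% in either direction against 62.5% of all genes, so the count does not set them apart. UBE2L6, the conjugating enzyme for the ubiquitin-like protein ISG15, rose by 3.71 on the log2 scale, and UBE2W, which starts chains on TRIM5 and TRIM21, rose by 0.58. UBE2N, which builds lysine-63-linked chains with TRIM5 and TRIM21, had a log2 fold change of -0.65, and its cofactors UBE2V1 and UBE2V2 had -0.27 and -0.58.

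Of 11 other genes of PML nuclear bodies, 5 were higher (45.5%) and 4 were lower (36.4%), against 30.6% and 31.9% of all genes. SP110, SP140 and SP140L, chromatin readers of the Speckled protein family, rose by 3.52, 3.04 and 2.93, whereas their relative SP100 fell by 1.17. The ubiquitin-like modifiers SUMO2 and SUMO3 had log2 fold changes of -0.48 and -0.54, and MORC3, an ATPase of these bodies, rose by 0.62. Of family relatives without a TRIM number in their name, TRIML2 rose by 3.64 and MEFV by 0.28, MID1 (-0.01) and MID2 (-0.21) did not pass, and TRIML1 was not tested.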

How the data were processed

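Only the human samples of the series were used, 2 control and 2 PAK1 shRNA, grouped by their labels. RNA was amplified, labelled with Cy3 and hybridized by the authors, who deposited a scanner intensity per spot from Agilent Feature Extraction (version 9.5.3.1). The authors also deposited log2 values, used as an alternative. The members and gene lists were chosen with earlier results of these data known. Some genes of the lists are not reported here.

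Following the methods, normexp background correction and quantile normalization were applied, with an offset of 50 chosen here. The normexp fit omitted spots with a flagged local background, since with them the fitted mean was -666 and -740 for the control samples, and -9.19 and -12.1 without. Outlier spots were dropped, spots of a probe averaged, and probes kept when both arrays of a group measured them well above background. The brightest probe represented its gene. Genes were tested with lmFit and eBayes (limma 3.58.1, R 4.3.3) with Benjamini-Hochberg adjustment over all genes at 0.05; probes were adjusted over all probes. With 2 arrays per group an exact permutation test cannot give a two-sided p below 0.333. The number of arrays limits the precision. The fit was tested on simulated data. Sequences are from RefSeq (GRCh38.p14), and probe coordinates are those of the deposited files (hg19). Described in every array were the interferon-induced list, the 6 largest rises and the 6 largest falls among other members measured above background in every sample, and the 4 brightest members that did not pass. Alternatives changed the background correction, the normalization, the filter, the treatment of flags, the probe per gene, the test and the threshold, added the replicate number as a block, and left out each array.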

Additional observations from a re-analysis of the deposited data

How the results depend on the processing

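For the 58 TRIM genes, alternatives gave 979 values. Sign and call held in 920 of them, while 16 lost the call, 9 gained one, 32 changed sign without passing, and 2 that had not passed were called on the other side of 0, TRIM58 at 0.25 and TRIM71 at 0.26 under median centring. The median of the interferon-induced members was 1.94 with normexp fitted on all spots, 2.05 with an offset of 16, 2.18 with the processed signal, 2.14 under cyclic loess, 2.05 in the authors' values, and 2.00 to 2.04 with each array left out. That of the other members was -0.046 with normexp on all spots, 0.021 with the processed signal, -0.052 under cyclic loess, 0.10 under median centring, and -0.10 to -0.070 with each array left out. Under the processed signal and median centring the median of all genes was 0.11 and 0.14. The cause of these shifts was not tested. All 12 interferon-induced members stayed higher and past the threshold in each refit except the methods' t-test (9 of 10 tested) and without control replicate 1 (10 of 10 tested). Adding a 2-fold threshold left 15 members higher and 8 lower, and 1934 and 1998 of all genes. The methods' t-test called 4176 genes higher and 4548 lower.

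With the replicate number as a block 23 members were higher and 18 lower, TRIM52 being added (adjusted p = 0.0209). Arrays with the same number did not deviate from their group means together (r = 0.00766 over 26303 probes), and they share only a number. With each array left out, 21 to 23 members were higher and 15 to 18 lower, and 5617 to 6238 and 5950 to 6596 of all genes. All 4 arrays lay on 1 slide, so a slide block was not run. Dim members are limited by background: with normexp on all spots and with the processed signal, the log2 fold change of TRIM31 was 0.60 and 4.13 and that of TRIM15 -0.31 and -0.96.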
